A study of Danio rerio with 12 samples.

Results

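Cell cycle and DNA replication genes were examined in whole zebrafish larvae after exposure to the herbicide atrazine during embryonic development. They were the 21 genes, of 2650 measured under a symbol, whose platform annotation symbol began like a cyclin, a cyclin-dependent kinase (CDK), a CDC gene, a replication factor, a mitotic kinase, a centromere protein, a kinesin or a chromosome structure gene. RNA came from 12 pools of 50 wild-type AB larvae collected at 72 hours after fertilization, 3 pools at each of 0, 0.3, 3 and 30 ppb atrazine given from about 1 to 72 hours, and 0 ppb served as control. Every pool had a one-colour NimbleGen array of its own. The labels call the pools biological replicates without naming the clutches behind them, so the p-values reflect pool-to-pool spread alone.

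Cells divide by passing through a phase of DNA synthesis and a phase of chromosome segregation, each started by a cyclin bound to its kinase. Before synthesis, the origin recognition complex marks the start sites and loads the ring of MCM proteins. MCM10 and the GINS complex then turn this ring into a working helicase, and replication factor C loads the sliding clamp that holds the polymerases on DNA. In zebrafish larvae of this age, dividing cells are found in the growth zones of the eye and brain, the gut and other growing tissues, so a whole-larva level averages them with many cells that no longer divide. Fewer dividing cells and less RNA per dividing cell cannot be told apart in such samples.

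By known function, 10 of the 21 genes belong to the dividing-cell machinery. These were the cyclins ccna2 (RefSeq NM_152949) and ccnd2a, the kinase cdk4, the replication genes orc2, mcm5 (NM_178436), mcm10, gins3, rfc2 and rfc5, and the centromere gene cenpl. The other 11 share the letters of the family names, and several have known roles elsewhere. Cyclin C, encoded by ccnc, is known from other animals as part of the kinase module of the Mediator complex of transcription. The genes cdk5r1b and cdk5r2b encode activators of CDK5 in neurons, cdkal1 encodes a tRNA-modifying enzyme, cdc42 a GTPase of cell polarity and the actin skeleton, and kif3a a kinesin motor of cilia. In mammals the product of smcr8b acts in autophagy, and it is no structural maintenance of chromosomes protein. The other members were cdk10, a CDC2-related kinase gene, cdkn2aip, named for its binding to the tumour suppressor ARF in humans, ccndbp1, named for its binding to cyclin D1, and nek12, a NIMA-related kinase gene. The genes were read by 247 features, 11 or 12 for most, 19 for cdc42 and 4 for smcr8b. A gene's level is the mean log2 intensity of its features.

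None of the 21 genes passed the test of a change at any dose, and cell cycle genes among the 34494 units without a symbol were not identified. With limma over all 37144 units of the array (genes, or targets unnamed here), 0 of the 21 passed an adjusted p of 0.05 at 0.3, 3 or 30 ppb, where the share called among all units was also 0% at each dose. At an unadjusted p under 0.05 the count was again 0 of 21, against 1.48%, 3.02% and 2.5% of all units at the 3 doses. Each change is the fitted log2 level at a dose minus that at 0 ppb, given with its standard error (SE), and the 3 doses share the same control pools. The changes lay between -0.21 and 0.26 at 0.3 ppb, between -0.22 and 0.25 at 3 ppb and between -0.25 and 0.19 at 30 ppb. All 63 of the 95% intervals (21 genes at 3 doses, each interval for its own gene) lay inside a 2-fold change in either direction, and 52 lay inside 1.5-fold. The widest bounds were 0.620-fold for ccnc and 1.76-fold for cdk4, both at 0.3 ppb. For 16 genes chosen by the naming rule given below, 15 of the 48 changes against control kept their sign in all alternative settings. The settings numbered 22, or 21 for nek12, which the filter on dim units removed. Some of those settings could not move a change, such as the replicate block or leaving out a pool of a dose not compared.

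**Figure D1:**
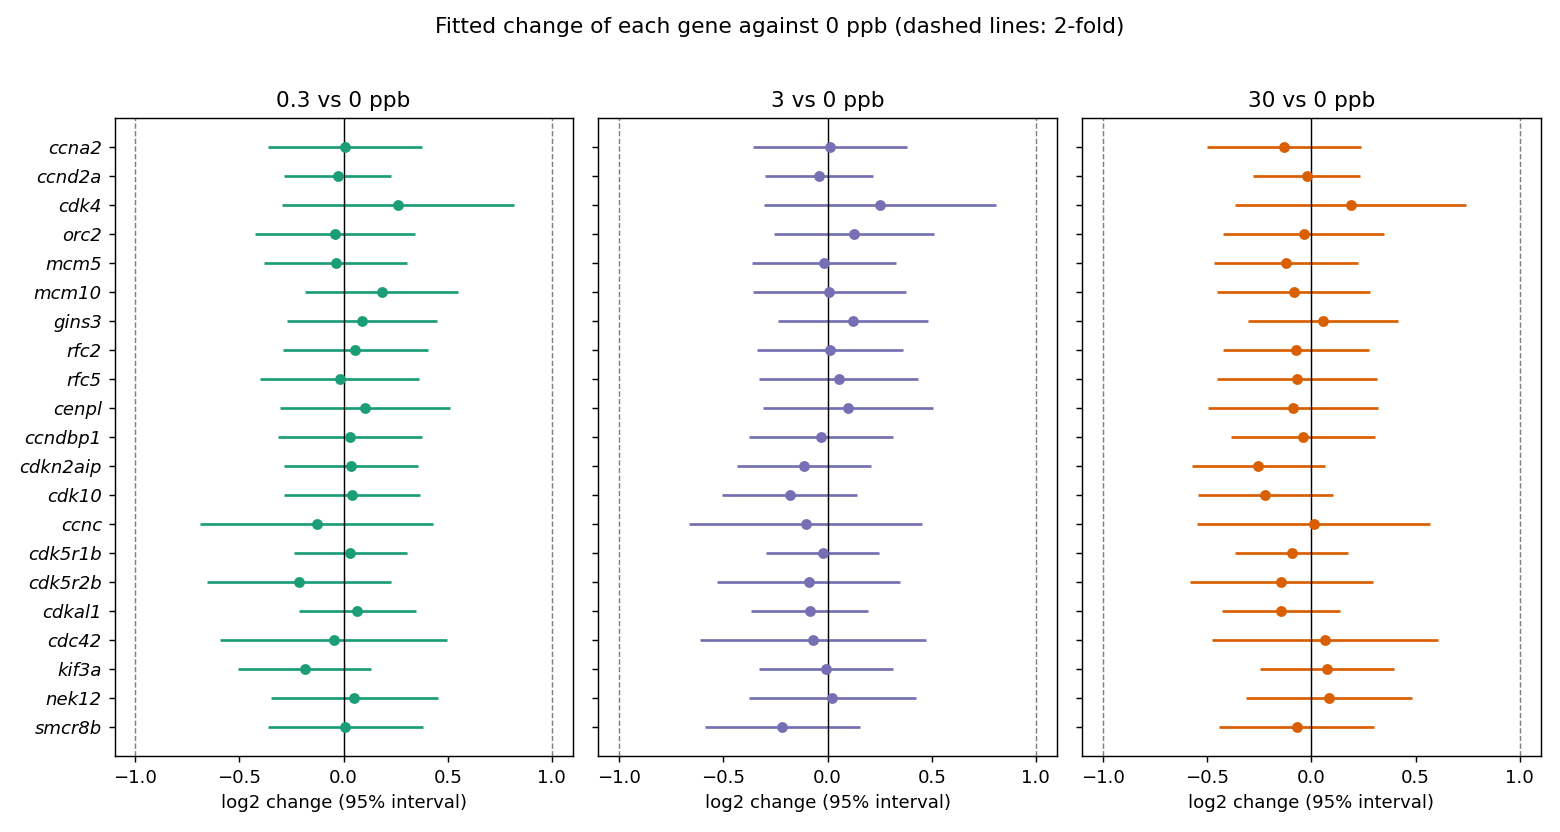
Fitted log2 change of each of the 21 genes against 0 ppb at 0.3, 3 and 30 ppb, with 95% intervals as bars and dashed lines at 2-fold. Every interval crosses 0, and all 63 lie between the dashed lines.

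Among the genes that start the cycle, ccna2, whose product drives DNA synthesis and entry into mitosis, had log2 levels of 12.38, 12.15 and 12.11 in the control pools and 12.37, 12.30 and 12.002 at 0.3 ppb. At 3 ppb the pools lay at 12.06, 12.16 and 12.46, and at 30 ppb at 11.86, 12.37 and 12.03. The groups overlapped at all doses, and 30 ppb held both the lowest pool of the series and one within the range of the controls. At 30 ppb the change was -0.13 (SE 0.17, adjusted p = 1), or 0.914-fold with a 95% interval of 0.707 to 1.18.

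The D-type cyclin gene ccnd2a, whose product carries cells from rest into the cycle, was the steadiest of the 21 genes. All 12 pools lay between 11.98 and 12.26, with a pooled SD within a dose of 0.09. Its changes were -0.03, -0.04 and -0.02 at the 3 doses (SE 0.12 for each, adjusted p = 1 for each), and the 95% interval at 30 ppb was 0.823 to 1.18-fold.

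The gene for its kinase partner, cdk4, was among the least steady, with a pooled SD of 0.36. The control pools lay at 6.90, 6.88 and 7.72, so the third control pool stood well above the other two. The pools at 0.3 ppb lay at 7.29, 7.18 and 7.81, those at 3 ppb at 7.75, 7.11 and 7.39, and those at 30 ppb at 7.27, 7.65 and 7.14. Every dose group overlapped the controls. The changes of 0.26, 0.25 and 0.19 (SE 0.26 for each, adjusted p = 1 for each) were the largest positive changes of any member at all 3 doses, and all 3 depended on single pools. Without the third control pool they were 0.54, 0.53 and 0.47, and without 30 ppb replicate 2 the change at 30 ppb was 0.04. Array quality weights gave 0.55 at 30 ppb.

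**Figure D2:**
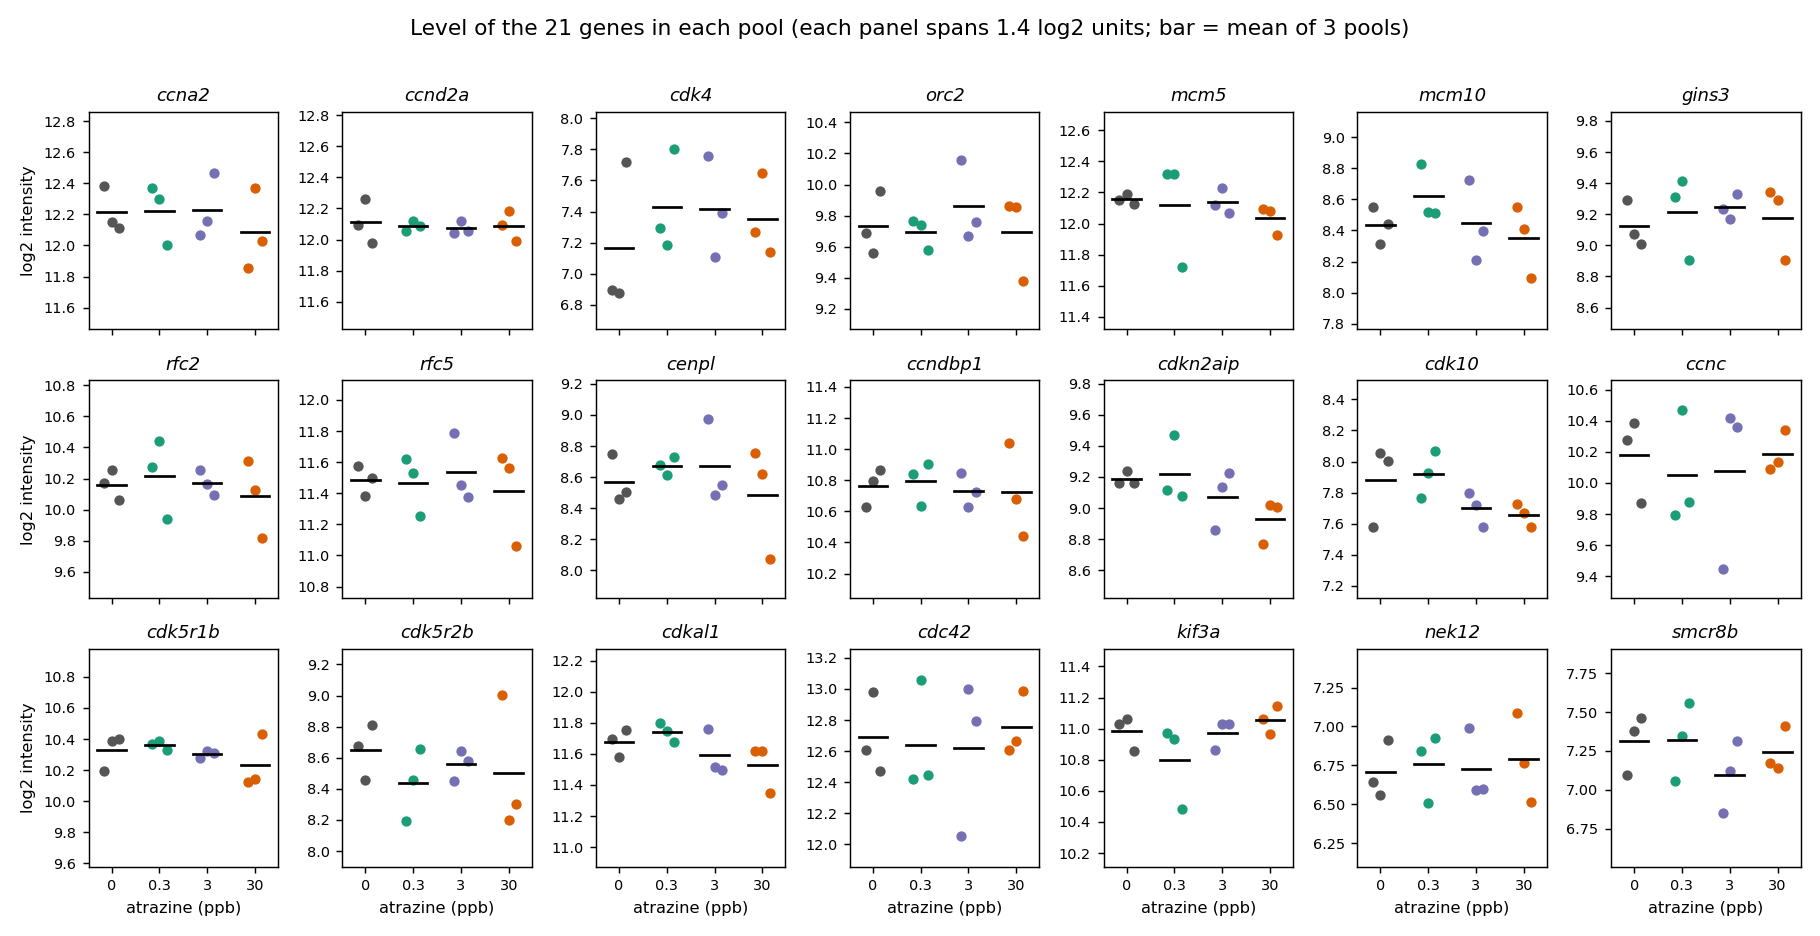
Log2 intensity of the 21 genes in each pool (points) and the mean of 3 pools (bar) at 0, 0.3, 3 and 30 ppb; the first 10 panels are the dividing-cell genes, and each panel spans 1.4 log2 units. The pools of ccnd2a lie within 0.28 of each other, while those of cdk4 spread over 0.93 with 1 high control.

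None of the 6 replication genes passed the test at any dose, and the direction of the group turned with single pools at each dose. At 0.3 ppb 3 were higher and 3 lower than in controls (median change 0.02), but without 0.3 ppb replicate 3 all 6 were higher (median 0.18). At 3 ppb 5 were higher (median 0.03), and without 3 ppb replicate 1 only 1 was (median -0.03). At 30 ppb 5 of the 6 were lower, by a median of -0.07, beside a median of -0.04 over all 2650 genes with a symbol and -0.02 over all units. Without 30 ppb replicate 3 the replication genes had 5 of 6 higher and a median of 0.08. Array quality weights turned the medians at 0.3 and 3 ppb to -0.02 and -0.07.

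The helicase gene mcm5 had control levels of 12.15, 12.19 and 12.13, the tightest control group of the replication genes (12.16 ± 0.03, SD, n = 3). At 30 ppb its pools lay at 12.09, 12.08 and 11.93, all below all controls, with 8 of its 11 features lower. The change was -0.12 (SE 0.16, adjusted p = 1), with a 95% interval of 0.724 to 1.17-fold. With the median in place of the mean of its features the change was -0.02, and without 30 ppb replicate 3 it was -0.07. The 0.3 ppb pools, at 12.32, 12.32 and 11.72, held both the highest and the lowest mcm5 level of the series, and the 3 ppb pools lay at 12.12, 12.23 and 12.07.

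The helicase activator gene mcm10 had control levels of 8.55, 8.31 and 8.44. Its change of 0.18 (SE 0.17) at 0.3 ppb was the second largest positive one among the 21 genes at that dose, with pools at 8.83, 8.52 and 8.51 and 9 of 12 features higher. The groups overlapped, and its changes at 3 and 30 ppb were 0.01 and -0.09.

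For orc2, a subunit of the origin recognition complex, the control pools lay at 9.69, 9.56 and 9.96 and the 3 ppb pools at 10.16, 9.67 and 9.76 (change 0.13, SE 0.18). At 0.3 ppb they lay at 9.77, 9.74 and 9.58, and at 30 ppb at 9.86, 9.85 and 9.38. The highest pool of the series was 3 ppb replicate 1 and the lowest 30 ppb replicate 3.

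The GINS subunit gene gins3 had pools at 9.29, 9.07 and 9.01 at 0 ppb, 9.31, 9.41 and 8.91 at 0.3 ppb, 9.24, 9.17 and 9.33 at 3 ppb and 9.34, 9.29 and 8.90 at 30 ppb. It was the only replication gene higher than control at every dose, by 0.09, 0.12 and 0.06 (SE 0.17 for each), though at 0.3 and 30 ppb the sign held in only 20 of 22 alternative settings. The clamp loader genes rfc2 and rfc5 differed from control by at most 0.07 in size at any dose (SE 0.16 and 0.18).

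The centromere gene cenpl, whose product belongs to the inner kinetochore, had control levels of 8.75, 8.46 and 8.50. Its pools lay at 8.68, 8.61 and 8.73 at 0.3 ppb (change 0.10, SE 0.19), at 8.97, 8.49 and 8.55 at 3 ppb and at 8.76, 8.62 and 8.07 at 30 ppb. The range of the 30 ppb pools, from 8.07 to 8.76, covered all control pools, and the change there was -0.09 (SE 0.19).

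Among the 11 members outside the dividing-cell group, the largest negative changes at 30 ppb were in cdkn2aip and cdk10. For cdkn2aip the control pools lay at 9.16, 9.24 and 9.16 (9.19 ± 0.04), those at 0.3 ppb at 9.12, 9.47 and 9.08, those at 3 ppb at 8.86, 9.14 and 9.22, and those at 30 ppb at 8.77, 9.02 and 9.01. All 30 ppb pools lay below all controls, and 10 of its 12 features were lower. The change was -0.25 (SE 0.15, unadjusted p = 0.11, adjusted p = 1), or 0.838-fold with a 95% interval of 0.671 to 1.05.

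Only cdkn2aip and mcm5, 2 of the 21 genes, had no overlap between the 30 ppb and control pools, where 6.53% of all units had none. No member was free of overlap at 0.3 or 3 ppb, where 5.08% and 7.4% of all units were.

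For cdk10 the pools lay at 7.58, 8.05 and 8.01 at 0 ppb, 7.77, 7.93 and 8.07 at 0.3 ppb, 7.80, 7.72 and 7.58 at 3 ppb and 7.73, 7.67 and 7.58 at 30 ppb. The first control pool was as low as the lowest treated pools, so the groups overlapped. The changes were 0.04, -0.18 and -0.22 (SE 0.15 for each). The tRNA-modifying enzyme gene cdkal1 had control levels of 11.70, 11.58 and 11.75 and levels of 11.80, 11.75 and 11.68 at 0.3 ppb. At 3 ppb its pools lay at 11.76, 11.51 and 11.50 and at 30 ppb at 11.62, 11.62 and 11.35 (change -0.15, SE 0.13).

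The neuronal CDK5 activator gene cdk5r2b showed the largest negative change at 0.3 ppb, -0.21 (SE 0.20), with control pools at 8.68, 8.46 and 8.81 and treated pools at 8.19, 8.45 and 8.66. Its pools at 3 ppb lay at 8.45, 8.64 and 8.58, and those at 30 ppb spread from 8.20 to 9.01. The cilia motor gene kif3a was next at 0.3 ppb, by -0.19 (SE 0.15, unadjusted p = 0.228), with controls at 11.03, 11.06 and 10.85 and treated pools at 10.97, 10.94 and 10.48. The lowest pool of the series was 0.3 ppb replicate 3, where 1 of the 12 features read 8.45 against at least 12.5 in the control and the other 0.3 ppb pools. Without that pool the change was -0.03, and with the median of the features it was -0.05. Its 3 ppb pools lay at 10.86, 11.03 and 11.03 and its 30 ppb pools at 11.06, 10.97 and 11.14.

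At 3 ppb the largest negative change was in smcr8b, by -0.22 (SE 0.17, unadjusted p = 0.23), with controls at 7.09, 7.38 and 7.47 and treated pools at 6.85, 7.12 and 7.31. It was read by only 4 features, of which 3 were lower. Array quality weights turned the change to 0.05, and without 3 ppb replicate 1 it was -0.09. Its pools at 0.3 ppb lay at 7.06, 7.35 and 7.56 and those at 30 ppb at 7.17, 7.14 and 7.41. The kinase gene nek12 had pools between 6.51 and 7.09 over all doses, with changes of 0.05, 0.02 and 0.08 (SE 0.18 for each). The changes of cdk5r1b and ccndbp1 were at most 0.10 in size at any dose.

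Between pools of 1 dose, ccnc and cdc42 varied about as much as cdk4, with pooled SDs of 0.36 and 0.35. For ccnc the pools lay at 10.28, 10.38 and 9.87 at 0 ppb, 9.79, 10.47 and 9.88 at 0.3 ppb, 9.45, 10.42 and 10.36 at 3 ppb and 10.09, 10.14 and 10.34 at 30 ppb. For cdc42 they lay at 12.61, 12.98 and 12.48, then 12.42, 13.06 and 12.45, then 12.06, 13.00 and 12.80, and 12.61, 12.66 and 12.99. In both genes 3 ppb replicate 1 was the lowest pool and 0.3 ppb replicate 2 the highest. The features of cdc42 came from 2 transcripts of the gene, and at 30 ppb their mean changes were 0.09 and 0.01.

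The share of a gene's variance over 12 pools that lay between doses had a median of 11.3%, from 2.65% for nek12 to 42.2% for cdkn2aip. The median over genes with a symbol was 18.7% and over all units 17.4%. Groups of so few pools differ in their means even where dose has no effect, so these shares do not measure an effect of atrazine. The share that unrelated dose labels would give was not computed. The pooled SD within a dose had a median of 0.21, beside 0.19 for genes with a symbol.

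The replication genes varied together from pool to pool. Over the 12 pools all 15 pairs of the 6 genes were positively correlated, with a median Pearson r of 0.63 (range 0.28 to 0.86), and after each dose's mean was removed the median was 0.72. Without the 2 pools farthest from the median of the first gene of each pair, the median r was 0.41 (range -0.20 to 0.72). Of the 15 pairs 2 were then below 0. This cut narrows the range of the first gene, so it cannot show how far the relation rested on those pools. It was not made for all pairs of genes with a symbol. Over all pairs of the 2650 genes with a symbol the median r was 0.02, and 5.72% of these pairs were at or above 0.63. All values of a pool share an array and its normalization.

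For orc2 and rfc5, r was 0.86 (permutation test over 12 pools, two-sided, p = 0.00073, adjusted p = 0.0331 over the 210 pairs of members), and Spearman's rho was 0.76 (permutation p = 0.006, adjusted p = 0.121). For gins3 and rfc2, r was 0.80 (permutation p = 0.00126, adjusted p = 0.0331) and rho 0.76 (permutation p = 0.0056, adjusted p = 0.121). Leaving out the 2 pools farthest from the median of the first gene lowered r to 0.60 and 0.53. Within doses r was 0.86 and 0.84. These 2 of the 15 pairs passed with r, and neither passed with rho.

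The centromere gene cenpl followed mcm10, with r of 0.83 (permutation p = 0.00106, adjusted p = 0.0331), rho of 0.86 (permutation p = 0.00071, adjusted p = 0.0441) and r of 0.69 without the 2 farthest pools (0.85 within doses). In all, 10 of the 210 pairs passed with r, 7 positive and 3 negative, and 4 of these passed with rho. The smallest r in size among the 10 was 0.708, a size that 21 of the 210 pairs (10%) and 5.17% of all pairs of genes with a symbol reached.

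Single pools stood out in this shared variation. In 30 ppb replicate 3 all 10 dividing-cell genes lay below their own mean over the 12 pools, and the 6 replication genes were lower by 0.18 to 0.42 (median deviation -0.35). Of all 21 members 16 lay below their mean in that pool (median deviation -0.21). Outside the dividing-cell group, ccndbp1, cdkal1, cdk5r2b, nek12, cdk10 and cdkn2aip were lower there, and ccnc, cdc42, cdk5r1b, kif3a and smcr8b higher. The share of all units below their mean there was not computed, so these counts cannot be set against the rest of the array. In 0.3 ppb replicate 3, 5 of the 6 replication genes were below their mean (median deviation -0.22), and mcm5 had its lowest level there. In 0.3 ppb replicate 1 and 3 ppb replicate 1 all 6 were above it, with median deviations of 0.13 and 0.18. The other pools at 30 ppb had median deviations of 0.13 and 0.03, so the pools of 1 dose lay on both sides of the mean.

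**Figure D3:**
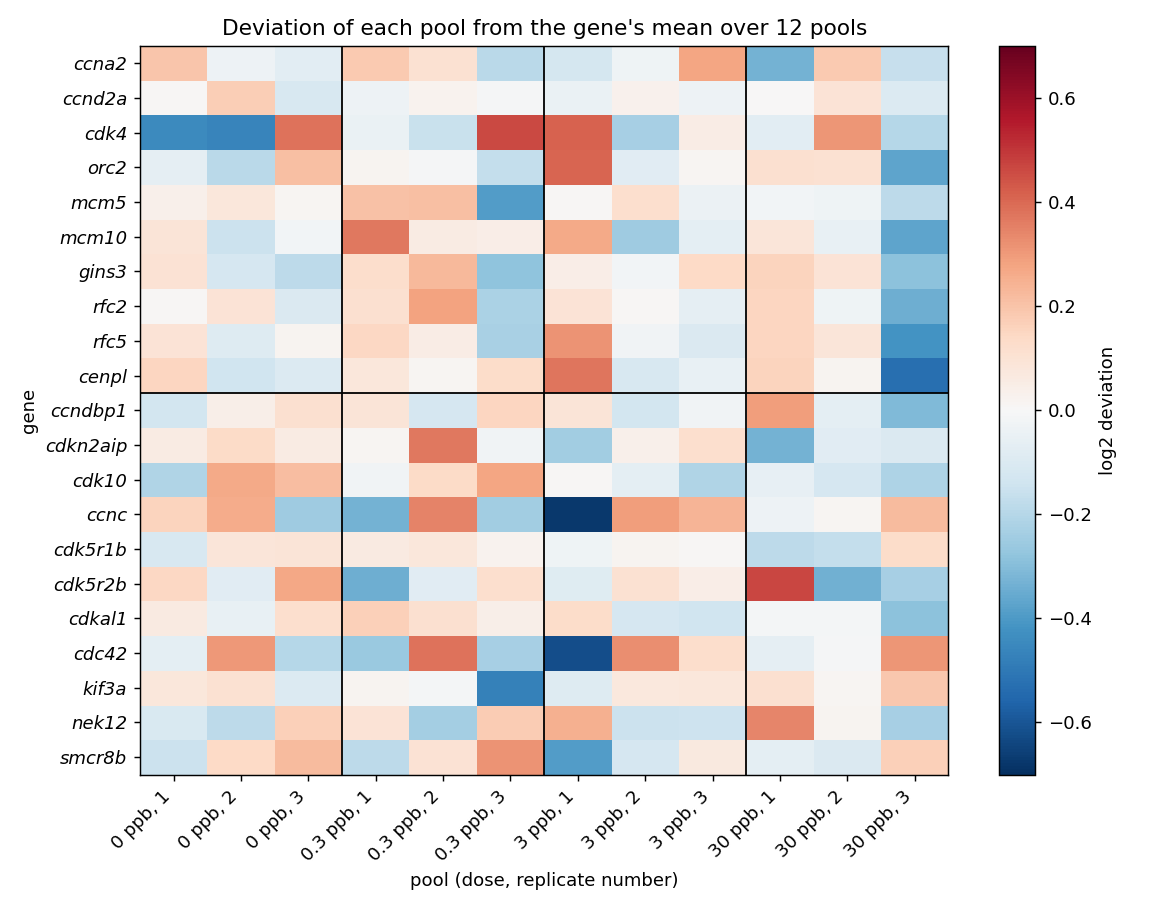
Log2 deviation of each pool from the gene's mean over 12 pools, with dividing-cell genes above the horizontal line and doses parted by vertical lines. The column of 30 ppb replicate 3 is below the mean in 16 of the 21 genes, among them all 10 dividing-cell genes. The genes ccnc and cdc42 share a low value in 3 ppb replicate 1.

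Part of the pool-to-pool variation followed the first principal component over the 12 arrays, which held 41.4% of the variance over all units and of which dose explained 4.37%. Its score was highest in 30 ppb replicate 3 (40.0) and lowest in 3 ppb replicate 1 (-55.6) and 0.3 ppb replicate 1 (-40.0). All replication genes were below their mean in the first of these pools and above it in the others, though mcm5 by only 0.01 in 3 ppb replicate 1. Other pools went against this pattern. In 0.3 ppb replicate 3, where most replication genes were low, the score was -22.3. In 0.3 ppb replicate 2 the score was 33.0, yet only 1 of the 6 replication genes was below its mean (median deviation 0.13). Of 21 members tested against the score of this component, 9 passed with r and 10 with rho (permutation tests over 12 pools, adjusted over 21). The score was computed from the values of all units, members included, so these p-values do not set the members apart from other genes. No share over all units was computed for rho. The smallest r in size among the 9 was 0.666. It was reached by 42.9% of the members, 27.2% of genes with a symbol and 33.8% of all units, so many genes of the array followed the component. The strongest were cdc42 with r = 0.96 (rho 0.90), ccnc with r = 0.95 (rho 0.90) and nek12 with r = -0.91 (rho -0.87). Their permutation p-values for r were 1e-05, 1e-05, the smallest that 100000 permutations can give, and 0.00018 (adjusted p = 0.000105, 0.000105 and 0.00126). For rho the adjusted values were 0.0021, 0.0021 and 0.00371. Without the 2 arrays farthest from the median of the score r was 0.94, 0.92 and -0.94, and within doses it was 0.96, 0.95 and -0.94.

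Of the replication genes, mcm10 (r = -0.80, adjusted permutation p = 0.00567, rho = -0.80, r = -0.65 without the 2 farthest arrays) and orc2 (r = -0.72, adjusted permutation p = 0.0195, rho = -0.81, r = -0.61) followed the component. For mcm5, gins3 and rfc2 r was 0.10, -0.08 and -0.13, each with an adjusted permutation p of at least 0.762. For rfc5 r was -0.59 (adjusted permutation p = 0.0799) and rho -0.69 (adjusted permutation p = 0.0355), so it passed by rank only, and r was -0.34 without the 2 farthest arrays.

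The component moved with the slope of log2 intensity along the number that ends each feature's ID, which may be its position in the transcript (r = 0.84, permutation p = 0.00068, rho = 0.80, permutation p = 0.00273, r = 0.79 without the 2 farthest arrays). Of the 21 members 5 followed this slope with r and 3 with rho. The share over all units was not computed, so these counts cannot tell the members from other genes of the array. The 3 with rho were ccnc, cdk4 and ccndbp1 (adjusted permutation p = 0.0333, 0.0333 and 0.0482). With r, ccndbp1 did not pass (r = -0.59, adjusted permutation p = 0.118). For ccnc, cdc42, cdk4, kif3a and nek12 r was 0.90, 0.84, -0.79, 0.76 and -0.71 (adjusted permutation p = 0.00294, 0.00525, 0.0143, 0.00749 and 0.045), and rho was 0.80, 0.73, -0.81, 0.68 and -0.68. Without the 2 farthest arrays r was 0.87, 0.73, -0.62, 0.68 and -0.60. None of the 6 replication genes passed with either measure, and for mcm10 r was -0.61 (adjusted permutation p = 0.105). The part of the slope in the shared variation was not tested.

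Pairs such as ccnc and cdc42 (r = 0.96, rho = 0.95, adjusted permutation p = 0.0021 for each, r = 0.92 without the 2 farthest pools, 0.96 within doses) moved together across pools, and the part of the component in such correlations was not tested.

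**Figure D4:**
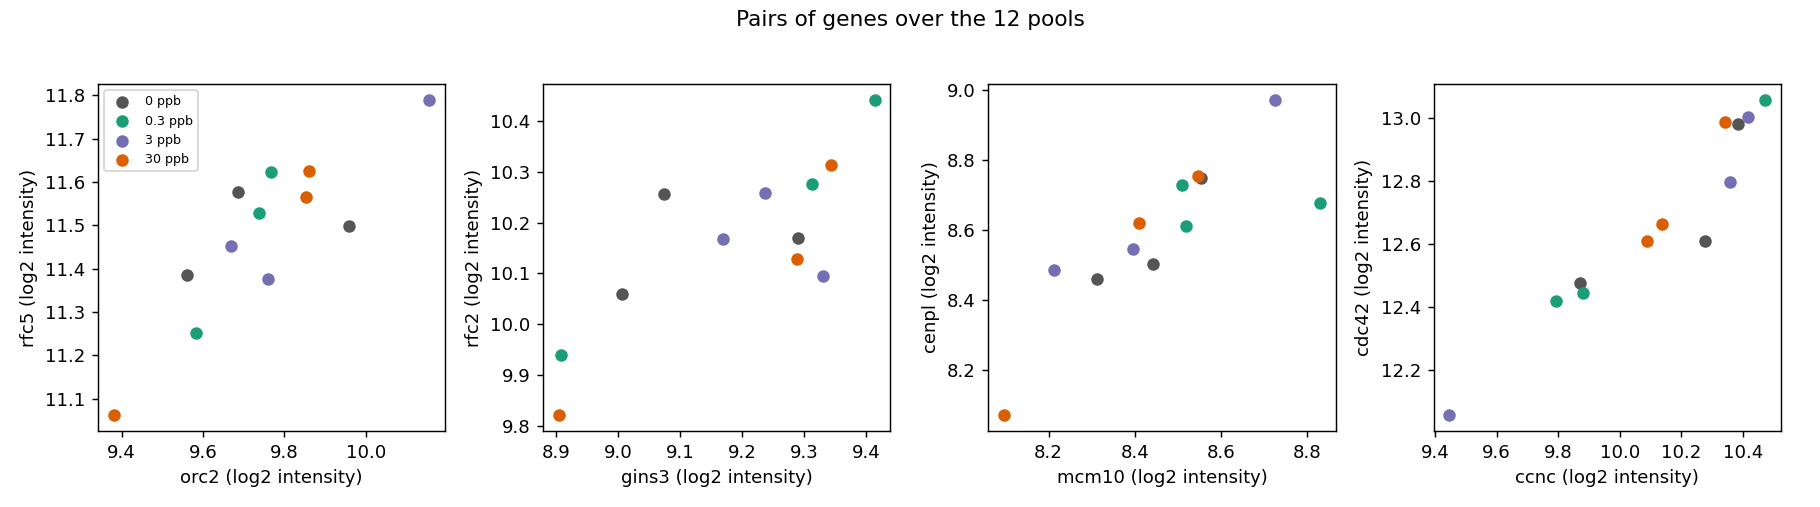
Log2 intensity of 4 pairs of genes over the 12 pools, coloured by dose. In each pair the 2 genes tend to be high in the same pools (r of 0.86, 0.80, 0.83 and 0.96 from left to right), though not in every pool. The doses are intermingled.

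Between treated doses, 0 of the 21 genes passed the test from 0.3 to 3, from 0.3 to 30 or from 3 to 30 ppb, where 0% of all units were called in each comparison. At an unadjusted p under 0.05 the counts were also 0 of 21, against 4.16%, 4.08% and 0.762% of all units. From 3 to 30 ppb all 6 replication genes were lower, by 0.07 to 0.16 (median -0.10, beside -0.03 for genes with a symbol), and the smallest unadjusted p of any member was 0.34, for cenpl. Without 30 ppb replicate 3 the replication genes had 4 of 6 higher and a median of 0.04. With array quality weights they also had 4 of 6 higher, with a median of 0.00.

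From 0.3 to 30 ppb, cdkn2aip had the smallest p, with a difference of -0.29 (SE 0.15, unadjusted p = 0.0741, adjusted p = 0.995). Its 30 ppb pools lay below all 0.3 ppb pools, as did those of cdk10 (-0.26, SE 0.15) and cdkal1 (-0.21, SE 0.13). These were 3 of the 21 genes, where 7.74% of all units had no overlap. From 0.3 to 3 ppb the smallest p was 0.164, for cdk10 (-0.22, SE 0.15), and 1 gene, cdk5r1b, had no overlap (-0.06, SE 0.12), against 7.45% of all units. From 3 to 30 ppb no member was free of overlap, against 3.6%.

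Over the ordered doses 0 of the 21 genes passed, against 0.0969% of all units. The steepest slopes were -0.09 per dose step for cdkn2aip (SE 0.04, unadjusted p = 0.058, adjusted p = 1) and -0.09 for cdk10 (SE 0.04, unadjusted p = 0.068, adjusted p = 1). At an unadjusted p under 0.05 the count was again 0 of 21, where 4.3% of all units were called.

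Of 135 further cell cycle and replication genes listed by function, 7 were measured under a symbol, and 0 passed at any dose. At 30 ppb 2 were higher and 5 lower, with a median of -0.04. The largest differences there were 0.21 for mad2l2 (SE 0.18), whose product acts in DNA damage bypass and the spindle checkpoint, and -0.20 for foxm1 (SE 0.15), a transcription factor gene of the mitotic programme. The dim gene mad2l2 had control pools at 6.60, 6.69 and 6.63 and 30 ppb pools at 7.19, 6.73 and 6.64. These overlapped, and only 30 ppb replicate 1 stood well above the controls. The control pools of foxm1 lay at 10.37, 10.04 and 10.29 and its 30 ppb pools at 10.00, 10.16 and 9.93, which overlapped. The gene of the CDK1-inhibiting kinase pkmyt1 differed by 0.14 (SE 0.14) at 30 ppb and by 0.26 (SE 0.14, unadjusted p = 0.0829) at 3 ppb. From 0.3 to 3 ppb it differed by 0.33 (SE 0.14, unadjusted p = 0.034, adjusted p = 1). Its pools did not overlap there, as in 7.45% of all units. In the same comparison chaf1a, a gene of the chromatin assembly factor that follows replication forks, differed by -0.34 with overlapping pools (SE 0.14, unadjusted p = 0.0353, adjusted p = 1). These were 2 of the 7 genes, where 4.16% of all units had an unadjusted p under 0.05. From 0.3 to 30 ppb, pkmyt1 (0.21, SE 0.14) and chaf1a (-0.23, SE 0.14) had no overlap between pools. They were 28.6% of the 7 genes, beside 7.74% of all units. The G1 transcription factor gene e2f3 differed by -0.09 (SE 0.14) at 30 ppb.

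The median intensity was 529 to 530 on every array. The normalized values had nearly the same quantiles on all arrays, so this median cannot show how alike the pools were. Of 82 marker genes of larval tissues 15 were measured under a symbol, among them the muscle actin gene acta1b, the haemoglobin gene hbae3, the radial glia gene fabp7a and the melanin synthesis gene dct, with control levels of 15.18, 14.80, 12.98 and 13.03. The median change over the 15 was -0.01, 0.01 and -0.01 at the 3 doses, and 0 passed the test. Single markers went either way, and those with the smallest p are named here for that reason. The haemoglobin gene ba1l differed by 0.69 at 3 ppb (unadjusted p = 0.00166, adjusted p = 0.732) and by 0.59 at 30 ppb (unadjusted p = 0.00473, adjusted p = 0.981). At 0.3 ppb it differed by 0.27 (SE 0.17, limma unadjusted p = 0.151). Its pools had no overlap with the controls at 0.3, 3 or 30 ppb, where 5.08%, 7.4% and 6.53% of all units had none. It was dim, with a control level of 6.10. The other measured haemoglobin genes, hbae3 and hbbe3, differed by 0.06 and 0.60 at 0.3 ppb (SE 0.17 and 0.32). They differed by 0.15 and 0.19 at 3 ppb and by 0.06 and -0.03 at 30 ppb. The muscle gene mybpc1 differed by -0.48 at 0.3 ppb (unadjusted p = 0.0055, adjusted p = 1), also without overlap, as in 5.08% of all units there. The other measured muscle gene, acta1b, differed by -0.12 at 0.3 ppb (SE 0.20). The trypsin gene prss59.1 of the pancreas differed by -0.80 at 0.3 ppb (SE 0.51, limma unadjusted p = 0.144). From 0.3 to 3 ppb it differed by 1.13 (SE 0.51, unadjusted p = 0.0468, adjusted p = 1). The other measured pancreas gene, ctrb.3, differed by -0.09 and 0.44 in these comparisons (SE 0.49 for each). The part of tissue make-up in the values of the 21 genes was not tested. The only measured marker of neural stem and progenitor cells, fabp7a, differed by 0.03, 0.09 and 0.04. No marker of neurons, germ cells or the retina and lens was measured under a symbol, so the make-up of the larvae could be followed only in part.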

How the data were processed

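The authors deposited linear intensity values of 385000 features on 12 arrays, made with RMA per the submitters' processing notes, with version, background settings, slides and genome build not given in the sources used here. The quantiles were nearly the same on all arrays, and features were not summarised to transcripts. The intensities were changed to log2 and averaged per gene, with symbols from the platform annotation (30725 features, 399 of them through RefSeq accessions) and target IDs for the rest, which gave 37144 units. No filter on dim values was used, and no background call could be made, so the number of arrays limits the precision. No positions are given because no build is named.

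Group means over all 12 arrays were fitted with limma 3.58.1 in R 4.3.3 (default eBayes, Benjamini-Hochberg over all units, threshold 0.05). Other steps ran in Python 3.11.15 (numpy 2.4.6, pandas 2.3.3). The trend is the fitted step per rank of dose. Fits were tested on simulated data with 200 changed units. At each dose against control they called 0% of 1.5-fold changes. Of 2-fold changes they called 57%, 63% and 57.5% at 0.3, 3 and 30 ppb, with 9, 5 and 7 false calls. These shares depend on how many units change together, so they do not give the power for a single changed gene. The members and lists, including the 10 dividing-cell genes, were chosen with earlier results of these data known. Pool values, or for some groups only a range or change, are given for genes named by a rule. The rule took the 3 largest changes in each direction at each dose, the smallest p of each comparison, the brightest member of each role group, and ccna2 and mcm5. Pool values of foxm1, the range of ccnd2a, chaf1a and the markers ba1l, mybpc1 and prss59.1 were added after values were seen. The same holds for the changes of acta1b and ctrb.3, the pool values of mad2l2 and the changes of the haemoglobin genes at 0.3 ppb. Correlations used 100000 permutations (seed 1). Alternatives covered feature summary, normalization, dim units, array weights, variance moderation, groups in the fit, threshold, dose scale, a replicate block, a probe-position gradient and each pool left out.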

Additional observations from a re-analysis of the deposited data

How the results depend on the processing

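In 162 repeats of the 7 comparisons under the alternatives, 84 of them with 1 pool left out, limma called any of the 21 genes in 0. This held also where array quality weights called 1193 other units at 3 ppb and 2212 between 30 and 3 ppb, in fits with a convergence warning. Leaving out the dimmest 0.25 of the units removed nek12 and kept 20 of the 21 genes. The median change of the 21 genes was 0.03 at 0.3 ppb (-0.01 to 0.07 under the alternatives other than leaving out a pool, -0.03 to 0.05 with a pool left out), -0.02 at 3 ppb (-0.02 to 0.02, and -0.03 to 0.00) and -0.07 at 30 ppb (-0.07 to -0.02, and -0.12 to 0.026). It was -0.01 from 0.3 to 3 ppb (-0.04 to 0.02, and -0.07 to 0.00), -0.07 from 0.3 to 30 ppb (-0.10 to -0.03, and -0.14 to 0.0156) and -0.07 from 3 to 30 ppb (-0.09 to -0.02, and -0.11 to 0.0392). The positive ends of the comparisons with 30 ppb came without 30 ppb replicate 3, and -0.14 came without 0.3 ppb replicate 3. The slope over ordered doses had a median of -0.03 (-0.04 to 0.00 with a pool left out). With the replicate number as a block, medians could not move, since every dose held every number (-0.07 at 30 ppb), and 0 members were called. Deviations of same-numbered pools correlated from -0.37 to 0.68 (median 0.07), and those of differently numbered pools from -0.72 to 0.59 (median -0.02). Some same-numbered pools were alike. Replicates 2 at 0, 0.3 and 3 ppb correlated by 0.64 to 0.68, and replicates 1 at 0.3, 3 and 30 ppb by 0.43 to 0.52. Others were not, such as 30 ppb replicate 2 with those replicates 2 (-0.17 to 0.03). The differently numbered 0 ppb replicate 3 and 3 ppb replicate 1 correlated by 0.59. The main fit did not pair the pools by number. Of 12 pools, 6 correlated best with a pool of their own number, where 18 of the pairs compared shared a number and 36 did not.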
